A study of Mus musculus with 10 samples.

Results

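Ucp1, Prdm16, Ppargc1a, Dio2, Cidea and Kcnk3 are 6 genes known for heat production in brown adipocytes, and their RNA was followed in mouse dorsal skin with and without an intact Dlx4 gene. They were taken by symbol from a table of 24543 genes, and all 6 were found. They were chosen by role and with measured values in view, since the RPKM of Kcnk3 had been seen to be lower in newborn KO skin, so all values of KO against WT at postnatal day 1 are given as a description with no test. The study sequenced total RNA from skin of C57BL/6 mice labelled Dlx4-WT or Dlx4-KO, the latter ablated for the homeobox gene Dlx4. The 4 groups were WT at postnatal day 1 (P1, 3 samples), KO at P1 (3 samples), WT at postnatal day 60 (P60, 2 samples) and KO at P60 (2 samples). The labels do not say how Dlx4 was ablated, whether each sample is 1 animal, or which sex it was, and the samples are whole tissue with all its cell types. Values are RPKM, the reads of a gene scaled to its length and to the alignments of the library, so levels of different genes can be set side by side. Between samples they also depend on what other RNA each library holds.

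Brown adipocytes burn fat to make heat. Noradrenaline from sympathetic nerves acts on beta-adrenergic receptors, cAMP rises, and the mitochondrial uncoupling protein Ucp1 lets protons flow back across the inner membrane without making ATP. Prdm16 sets the brown adipocyte fate, Ppargc1a drives the making of mitochondria and is also used by skeletal muscle, Dio2 turns the prohormone thyroxine into active thyroid hormone inside the cell, Cidea coats lipid droplets, and Kcnk3 encodes a two-pore potassium channel that sets the resting membrane potential. Mouse sebaceous gland cells also make Cidea, and Kcnk3 is also used by smooth muscle and neurons.

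Ucp1, the defining gene of brown adipocytes, was close to 0 in every library, with 0.0188, 0.247 and 0.325 RPKM in WT and 0.0273, 0.202 and 0.156 RPKM in KO skin at P1. At P60 it was at 0.0706 and 0 RPKM in WT and at 0.0183 and 0 RPKM in KO. The highest of these values stands for about 20.1 reads and the lowest above 0 for about 1.16, taking 1636 bases of exons (GENCODE M21, which may differ from the authors' annotation). A count of 3 reads corresponds to 0.0245 to 0.0508 RPKM for Ucp1, for counting error only, and 5 of the 10 libraries lay above their own limit, 4 of them at P1. From P1 to P60 the difference in mean log2(RPKM + 0.5), the scale of all log2 values here, was -0.33 (two-sided exact permutation test of 6 against 4 samples, p = 0.0571, smallest possible p 0.00476). It passed without WT P1 replicate 1 (-0.39, exact p = 0.0238), KO P1 replicate 1 (-0.39, 0.0317) or WT P60 replicate 1 (-0.37, 0.0476). KO at P60 differed from WT by -0.07 (exact p = 1). These 6 genes are therefore described below as genes known from brown adipocytes, with no claim that the RNA came from such cells.

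Averaged over the 10 libraries, Cidea was the most abundant at 12.9 RPKM (range 4.66 to 18). Kcnk3 followed at 1.14 RPKM (0.448 to 3.48), then Ppargc1a at 0.986 RPKM (0.506 to 2.05), Dio2 at 0.817 RPKM (0.129 to 1.4), Prdm16 at 0.575 RPKM (0.485 to 0.656) and Ucp1 at 0.107 RPKM (0 to 0.325). The ranges of Kcnk3, Ppargc1a, Dio2 and Prdm16 overlap one another, so their order in the middle does not hold in each library. That of Cidea lies above all others, and that of Ucp1 below Cidea, Kcnk3, Ppargc1a and Prdm16 in each. At 1 RPKM in at least 2 libraries, the limit for the test over all genes, 4 of the 6 passed. Dio2 and Kcnk3 passed only through P1 libraries (6 and 4 at 1 RPKM or more), Ppargc1a only through 3 P60 libraries, 2 of them WT, and Cidea through all 10. A gene that passes through the group where it is high tends to differ from the others by that choice, so counts over the 4 are a description. Prdm16, whose second-highest value was 0.626 RPKM, and Ucp1 (0.247) stayed under the limit.

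**Figure D1:**
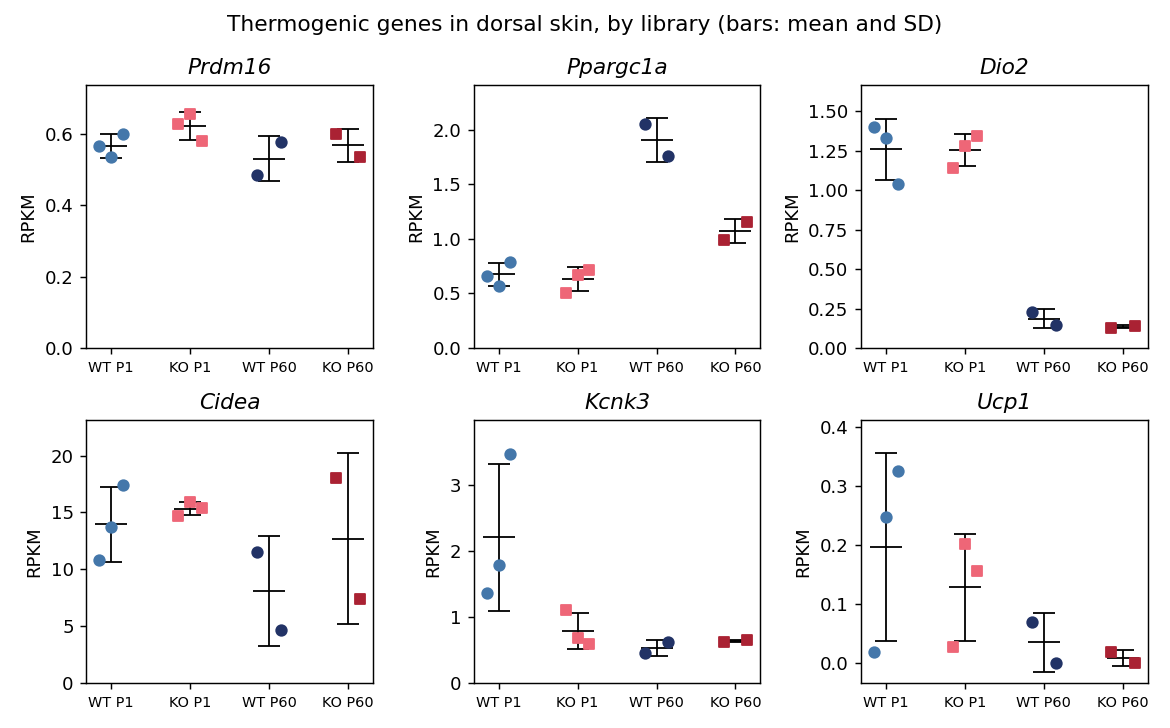
RPKM of each of the 6 genes (y axes, linear, each with its own scale) in the 4 groups (x axes); points are libraries and bars are the mean and SD. Dio2 and Ppargc1a separate the ages, Kcnk3 is spread widely in WT at P1 (1.37 to 3.48 RPKM), and the highest Ucp1 value is 0.325 RPKM.

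Several features of the whole series bear on these genes. The libraries held 36131011 to 74916106 alignments. Dlx4 itself was at 2.93, 3.78 and 3.42 RPKM in WT and 1.77, 2.45 and 1.62 RPKM in KO at P1, and at 0.125 RPKM or less in all 4 libraries at P60, where it cannot check the labels. The P1 libraries shared 1 run of the sequencer, and another run held those of P60. The Y-linked gene Ddx3y was at 16 RPKM in KO P1 replicate 2 and at 7.47 to 8.7 RPKM at P60, against at most 0.0138 RPKM in the other 5 P1 libraries, where Xist was at 29.2 to 39.8 RPKM. Age, run and, except for 1 library, sex thus cannot be told apart. The spread between samples may be technical in part, since nothing says that they came from separate animals.

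Prdm16 was the most even of the 6 genes. It stood at 0.565, 0.533 and 0.599 RPKM in WT and 0.626, 0.656 and 0.578 RPKM in KO at P1, and at 0.485 and 0.575 RPKM in WT and 0.6 and 0.535 RPKM in KO at P60. The groups overlapped within each age and between the ages. Between the ages the log2 difference was -0.06 (two-sided exact permutation test, p = 0.19). It turned to 0.14 (exact p = 0.0143) with median-of-ratios size factors, which set the libraries to a common median ratio in place of the deposited scale. KO at P60 was 0.05 higher (exact p = 0.667, where 2 against 2 samples cannot go below 0.333).

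Of the 4 genes tested, Ppargc1a alone was called between genotypes in adult skin, and it was also higher in adult than in newborn skin. It entered the fit only through P60 libraries, among them both WT libraries, the higher group of this comparison. At P60 it had 2.05 and 1.76 RPKM in WT and 0.992 and 1.15 RPKM in KO, with no overlap, so that the KO mean was 0.564 of the WT mean. At P1 it had 0.661, 0.573 and 0.788 RPKM in WT and 0.506, 0.672 and 0.711 RPKM in KO, which overlap. The log2 difference of KO from WT at P60 was -0.61 (SE 0.16, 95% interval -0.98 to -0.25, adjusted p = 0.0458 in limma with Benjamini-Hochberg adjustment over all 14026 genes tested). In this comparison 11.1% of all tested genes were called, 8.21% higher and 2.91% lower, against 1 of the 4 members, which is lower. The balance of the calls over all genes turned with the scaling, from 1152 higher and 408 lower to 533 and 874 with median-of-ratios factors and to 19 and 36 with quantile normalization. The groups did not overlap for 61.5% of all tested genes, with KO higher for 42.7% and lower for 18.8%, and for 3 of the 4 members, with KO higher for Kcnk3 and lower for Ppargc1a and Dio2. The median of all tested genes was 0.127, so relative to it Ppargc1a stood at -0.74. In whole tissue, fewer cells that make an RNA cannot be told apart from less of it per cell.

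The call rests on a narrow margin and was kept in 4 of 19 alternatives. It was lost with no expression filter (adjusted p = 0.0571) and in a fit to the P60 libraries alone (0.197). It ended (adjusted p of 0.052 to 0.298 in limma) when any 1 library other than WT P1 replicate 3 was left out, although the log2 difference stayed between -0.70 and -0.52. Skeletal muscle markers moved in the same direction. The 16 marker genes summed to 50200 and 57200 RPKM in WT and to 21700 and 37200 RPKM in KO at P60, against 4430 to 9190 RPKM at P1, with none of the 16 at 0 in any library. All 16 were lower in KO at P60 (median log2 difference -0.90) and 1, the myosin heavy chain gene Myh1, was called. Of all tested genes 2.91% were called lower, and the Myh1 call was kept in 8 of the 19 alternatives. The part of muscle in the Ppargc1a difference was not tested.

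**Figure D2:**
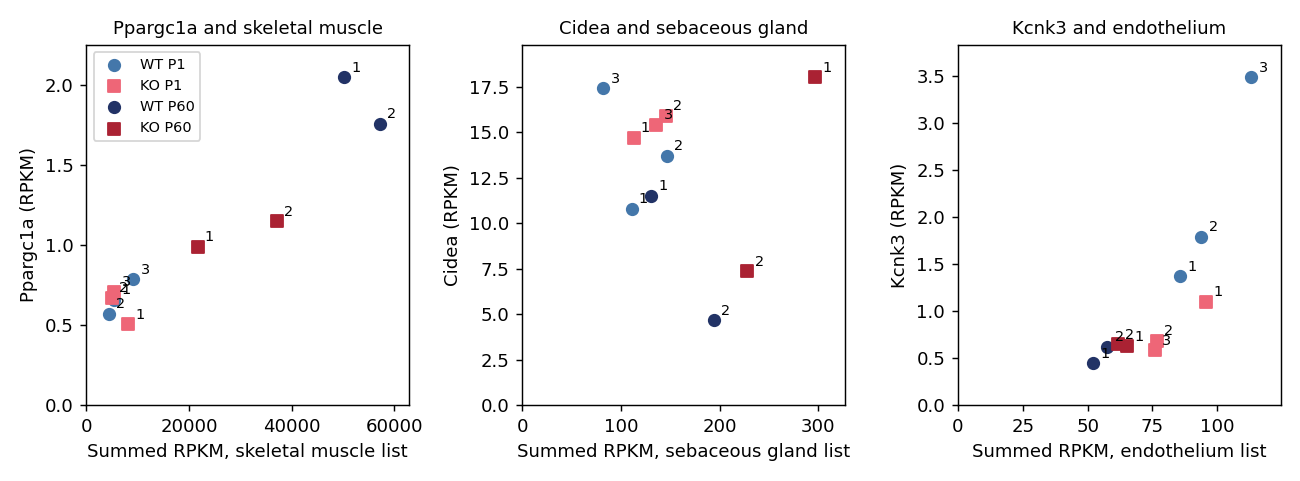
RPKM of Ppargc1a, Cidea and Kcnk3 (y axes) against the summed RPKM of marker genes of skeletal muscle, sebaceous gland and endothelium (x axes), 1 point per library, numbered by replicate. Ppargc1a and muscle markers are both highest in the 2 WT P60 libraries, and Kcnk3 and endothelial markers are both highest in WT P1 replicate 3. Of the P1 libraries, that one also has the highest muscle sum (9190 RPKM).

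From P1 to P60 Ppargc1a rose in both genotypes. The log2 difference of P60 from P1, averaged over genotypes, was 0.76 (SE 0.11, 95% interval 0.52 to 0.99, adjusted p = 7.79e-05 in limma), with every P60 library above every P1 library. In WT alone it was 1.03 and in KO alone 0.48. Ppargc1a entered the fit only through P60 libraries, where it is high, and with no expression filter the adjusted p was 0.000117 in limma. Of the 4 genes tested 3 were called between the ages, 1 higher and 2 lower, where 81.7% of all tested genes were called, 24.3% higher and 57.3% lower, and these members passed the limit through 1 age only, so nothing is read from the count. The ages did not overlap for 2 of the 4, Ppargc1a (higher) and Dio2 (lower), and for 66.6% of all tested genes, 16.5% higher and 50.1% lower. The median of all tested genes was -0.389 between the ages on the deposited scale and -0.0565 with median-of-ratios factors, and relative to the deposited median Ppargc1a stood at 1.15.

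Dio2 fell with age by the widest margin of the 4. The P1 libraries held 1.4, 1.33 and 1.04 RPKM in WT and 1.14, 1.28 and 1.34 RPKM in KO, and the P60 libraries held 0.228 and 0.145 RPKM in WT and 0.129 and 0.141 RPKM in KO. Every P60 library lay below every P1 library, and the mean over P1 was 7.82 times that over P60. The log2 difference was -1.41 (SE 0.11, 95% interval -1.64 to -1.17, adjusted p = 9.47e-07 in limma), or -1.02 relative to the median of all genes, and it stayed called in all 20 alternatives, from -2.39 to -0.79. Dio2 entered the fit only through its P1 libraries, where it is high, and with no expression filter the adjusted p was 2.92e-06 in limma. KO P1 replicate 2, the P1 library with Y-linked RNA, had 1.28 RPKM of Dio2, within the range of the other P1 libraries. The part of sex in the age difference of Dio2 was not tested. Between genotypes at P60 the log2 difference was -0.11 (95% interval -0.47 to 0.25, adjusted p = 0.68 in limma), with both KO libraries just below both WT libraries.

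The promoters of Dio2 and Ppargc1a are shown because these genes, both known to respond to cAMP, moved in opposite directions with age, and that of Ucp1 because it is the defining gene. RefSeq windows of 250 bases before to 50 bases after the start (GRCm38.p6, the build of mm10) were found for 4 of the 6 genes. They were searched on both strands for the cAMP response element TGACGTCA, its short form TGACG (which also lies within the whole element) and the nuclear receptor motif AGGTCA. Capitals mark matches and all sequences read 5′ to 3′ along the gene.
Dio2, chr12:90738989-90739288, minus strand: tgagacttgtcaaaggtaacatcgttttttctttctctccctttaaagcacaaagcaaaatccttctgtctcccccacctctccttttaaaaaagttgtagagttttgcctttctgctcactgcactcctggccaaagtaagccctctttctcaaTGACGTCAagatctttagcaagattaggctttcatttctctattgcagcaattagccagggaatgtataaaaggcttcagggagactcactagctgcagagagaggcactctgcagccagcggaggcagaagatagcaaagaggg
Ppargc1a, chr5:51567676-51567975, minus strand: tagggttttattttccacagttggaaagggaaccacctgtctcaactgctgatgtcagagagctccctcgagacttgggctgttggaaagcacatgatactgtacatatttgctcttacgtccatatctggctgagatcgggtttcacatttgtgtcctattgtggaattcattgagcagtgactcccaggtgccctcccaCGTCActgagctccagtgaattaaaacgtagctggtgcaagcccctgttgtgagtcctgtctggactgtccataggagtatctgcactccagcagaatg
Ucp1, chr8:83290098-83290397, plus strand: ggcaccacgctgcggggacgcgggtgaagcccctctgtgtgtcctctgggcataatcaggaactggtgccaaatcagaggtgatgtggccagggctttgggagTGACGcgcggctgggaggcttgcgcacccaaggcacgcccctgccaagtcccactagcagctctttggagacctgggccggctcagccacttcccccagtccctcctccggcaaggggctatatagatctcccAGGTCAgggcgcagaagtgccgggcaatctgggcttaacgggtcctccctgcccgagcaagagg

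The Dio2 window holds the whole element once, with its first base 95 bases before the start. Among 32851 promoter windows of the same length, 1.79% hold it. The windows of Ppargc1a and Ucp1 each hold the short form once, found in 20.8% of all windows, and that of Ucp1 also holds the nuclear receptor motif, found in 16.3%. The Prdm16 window holds none of the 3 motifs. These matches describe letters, and no binding was measured.

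Cidea was the most abundant of the 6 and varied most between adult libraries of 1 group. It stood at 10.8, 13.7 and 17.4 RPKM in WT and 14.7, 15.9 and 15.4 RPKM in KO at P1. At P60 it stood at 11.5 and 4.66 RPKM in WT and at 18 and 7.36 RPKM in KO, so the genotypes overlapped. The log2 difference of KO from WT at P60 was 0.61 (SE 0.43, 95% interval -0.35 to 1.58, adjusted p = 0.358 in limma), and it was 0.00 without KO P60 replicate 1 or without WT P60 replicate 2. From P1 to P60 the log2 difference was -0.62 (SE 0.28, adjusted p = 0.0618 in limma), and it was called without WT P60 replicate 1 (-0.93, adjusted p = 0.00872) or without KO P60 replicate 1 (-0.93, 0.00844). The 8 sebaceous gland markers summed to 131 and 194 RPKM in WT and 297 and 228 RPKM in KO at P60, and to 82.2 to 147 RPKM at P1, with none at 0. Scd1, a fatty acid desaturase, made up most of each sum, and without it the other 7 summed to 30.7 and 13.3 RPKM in WT and 64.2 and 23.3 RPKM in KO at P60 and to 33.7 to 53.7 RPKM at P1. Between the ages 6 of the 8 were lower at P60 (median -0.78, where that of all tested genes was -0.39). Of these markers 4 were called lower and 2 higher, near the 57.3% and 24.3% of all tested genes. Their median was -0.49 with median-of-ratios factors and -0.3 with quantile normalization. All 8 were higher in KO at P60 (median 0.74) and none passed, where 11.1% of all tested genes were called. The part of sebaceous glands in the Cidea values was not tested.

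Kcnk3 was the gene whose difference led to the choice. At P1 it had 1.37, 1.79 and 3.48 RPKM in WT and 1.1, 0.685 and 0.584 RPKM in KO, so that every KO library lay below every WT library, as for 2.48% of all tested genes; for 2.08% every KO library lay above, which makes 4.56% in either direction. The WT mean was 2.21 ± 1.12 RPKM and the KO mean 0.791 ± 0.275 RPKM (SD, n = 3 each), and the log2 difference was -1.02. It was -0.70 without WT P1 replicate 3, the library with the highest value, and -0.97 without KO P1 replicate 2. Over all genes 0 of 14026 (0%) were called at P1 in limma, 130 had an unadjusted p under 0.05, and array weights called 26. The other members at P1 were at 0.16 (Cidea), 0.07 (Prdm16), 0.00 (Dio2), -0.06 (Ppargc1a) and -0.13 (Ucp1), all with overlapping groups.

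At P60 Kcnk3 no longer stood lower in KO. The libraries had 0.448 and 0.622 RPKM in WT and 0.626 and 0.648 RPKM in KO, and the log2 difference was 0.14 (SE 0.32, 95% interval -0.58 to 0.86, adjusted p = 0.8 in limma), or 0.01 relative to the median of all genes. It was -0.09 with quantile normalization, which gives all libraries the same distribution. From P1 to P60 the log2 difference over both genotypes was -0.74 (SE 0.21, 95% interval -1.2 to -0.28, adjusted p = 0.00733 in limma), or -0.35 relative to the median of all genes, and the libraries of the ages overlapped. It did not pass with quantile normalization (-0.18, adjusted p = 0.402). Kcnk3 entered the fit only through its P1 libraries, where it is high, and with no expression filter the adjusted p was 0.0178 in limma. The P1 values that led to the choice are part of this age difference, so it is given as a description. The age differences were -1.32 in WT alone and -0.16 in KO alone, which restate the P1 difference behind the choice and are given with no test.

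**Figure D3:**
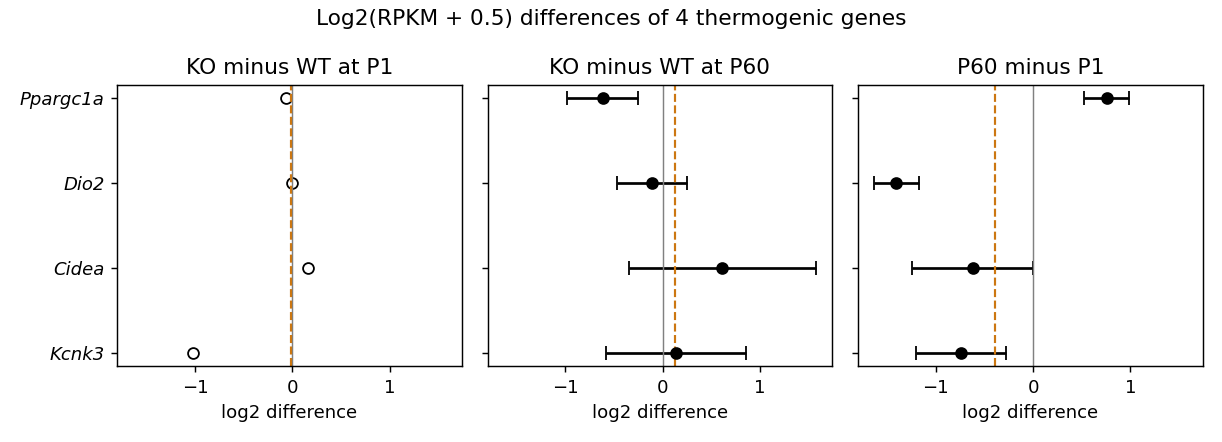
Log2 differences (x axes, log2(RPKM + 0.5) scale) of the 4 genes past the expression limit in 3 comparisons; bars are 95% intervals from limma, open points carry no test, and the dashed line is the median of all tested genes. Kcnk3 is at -1.02 at P1 and at 0.14 at P60, Ppargc1a is at -0.61 at P60, and Dio2 is at -1.41 between the ages.

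The 6 endothelial markers, Cldn5 among them, summed to 85.7, 93.8 and 113 RPKM in WT and to 95.5, 76.7 and 75.8 RPKM in KO at P1, and to 52.2 to 65.1 RPKM at P60, with none at 0. Without Cldn5 the other 5 summed to 67.4, 72.2 and 78 RPKM in WT and to 72.4, 60.5 and 61.5 RPKM in KO at P1, so the genotypes overlapped. Of all tested genes, Cldn5, which encodes a tight junction protein of endothelium, had the profile most like that of Kcnk3 over the 10 libraries. The measure was the root mean square difference of log2 values after each gene was centred on its mean, and it was 0.236 for Cldn5, 0.283 for Vps37d and 0.305 for Cmpk2. Cldn5 had 18.3, 21.6 and 34.6 RPKM in WT and 23.1, 16.2 and 14.4 RPKM in KO at P1, with its highest value in WT P1 replicate 3 as for Kcnk3. After centring within each age the nearest were Fam13a (0.223), Gbp3 (0.224) and Cldn5 (0.232). The mural cell and smooth muscle list, 11 genes with none at 0, summed to 306 to 385 RPKM in WT and 321 to 377 RPKM in KO at P1. At P60 it summed to 1100 and 1180 RPKM in WT and to 634 and 788 RPKM in KO. Des alone made up 103 to 203 RPKM of these sums at P1 and 433 to 1050 RPKM at P60. WT P1 replicate 3 also had the highest P1 sums of the skeletal muscle (9190 RPKM), mural cell (385 RPKM) and Schwann cell (79.6 RPKM) lists. Its sebaceous gland sum was the lowest at P1 (82.2 RPKM), and its adipocyte and dermal fibroblast sums were not the highest. The part of these cell types in the Kcnk3 values was not tested.

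Among the 4 members tested, by the same measure over all libraries, the closest pair was Cidea and Dio2 at 0.623, followed by Dio2 and Kcnk3 at 0.64, and the farthest was Dio2 and Ppargc1a at 1.08. Centred within each age the order turned, with Dio2 and Ppargc1a closest at 0.206 and the other pairs at 0.489 to 0.673. Nearest to Ppargc1a were Osgepl1 (0.0804), Mfsd7b (0.0886) and Prkab2 (0.0986), the last a subunit of the energy sensor AMP-activated kinase. Those nearest to Dio2 were Kif24 (0.0607), Rrp1b (0.0697) and Pds5b (0.0771). Among those nearest to Cidea were Foxc1 (0.198) and Efnb2 (0.222). Within each age the nearest were Fxr1 (0.0603), Osgepl1 (0.0624) and Zfand5 (0.0632) for Ppargc1a, Bnip2 (0.0307), Cdv3 (0.0347) and Arih1 (0.0348) for Dio2, and Paqr7 (0.143), Cnn1 (0.163) and Ugt1a1 (0.166) for Cidea.

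Of 26 other listed genes known from brown adipocytes 21 passed the expression limit, 1 was called higher and 1 lower in KO at P60 and 19 were not called, near the 11.1% called of all tested genes, with a median log2 difference of 0.16 where that of all tested genes was 0.13. Nrg4, which encodes a secreted factor of brown fat, rose from 1.48 and 1.7 RPKM in WT to 2.94 and 2.89 RPKM in KO (log2 difference 0.71, SE 0.15, adjusted p = 0.0319 in limma). P2rx5, an ATP-gated ion channel found on brown adipocytes and muscle, fell from 3.56 and 2.69 RPKM to 1.33 and 2.16 RPKM (-0.70, SE 0.19, adjusted p = 0.0475). Neither call held in all 19 alternatives: Nrg4 was called in 9 of them and P2rx5 in 6, with log2 differences of 0.50 to 0.84 and -0.97 to -0.44. The 5 that did not pass the limit, Lhx8, Otop1, Fgf21, Bmp8b and Slc27a2, had at most 0.541 RPKM in any library.

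**Figure D4:**
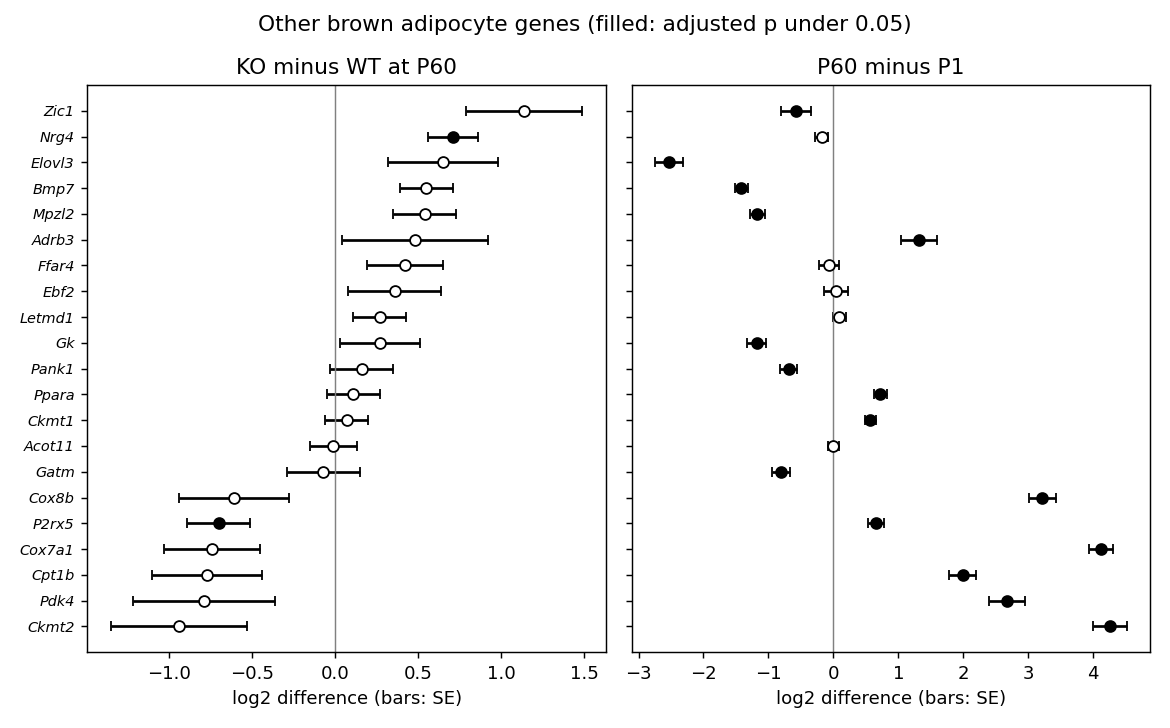
Log2 differences (x axes, log2(RPKM + 0.5) scale, bars are SE) of 21 other genes known from brown adipocytes at P60 between genotypes and between the ages; filled points were called in limma. Nrg4 and P2rx5 are filled on the left, and on the right Ckmt2 (4.26) and Elovl3 (-2.53) are at the ends.

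Between the ages, 9 of the same 21 genes rose and 7 fell, where 24.3% of all tested genes were called higher and 57.3% lower, with a median of 0.04 against -0.39 for all genes. With median-of-ratios factors 11 rose and 6 fell, and with quantile normalization 14 and 5. The largest rises were those of Ckmt2, the mitochondrial creatine kinase of striated muscle (log2 difference 4.26, SE 0.26), Cox7a1 (4.12, SE 0.19) and Cox8b (3.22, SE 0.21), both respiratory chain subunits of heart, muscle and brown fat. Cox7a1 went from 7.45 to 13.9 RPKM at P1 to 243 and 236 RPKM in WT and 118 and 175 RPKM in KO at P60. Of the muscle markers 13 of 16 rose and 2 fell (median 2.94), and their part in these differences was not tested. Adrb3, the beta-adrenergic receptor of adipocytes, rose by 1.32 (SE 0.28, adjusted p = 0.00151 in limma). Elovl3, a fatty acid elongase of brown fat and sebaceous glands, fell by 2.53 (SE 0.21). Of 8 sebaceous gland markers 4 fell and 2 rose, near the 57.3% of all tested genes called lower and the 24.3% called higher. The part of sebaceous glands in the Elovl3 difference was not tested. Zic1, a brown fat lineage marker, fell by 0.57 (SE 0.23, adjusted p = 0.0391), but passed in 9 of 20 alternatives (-0.09 with quantile normalization), and Ebf2, which sets brown adipocyte identity, was at 0.04 (adjusted p = 0.832). Adrb3, Elovl3, Zic1 and Ebf2 are added for their roles and were chosen after their values were seen.

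Of beige adipocyte genes, 4 of 6 were tested and 0 were called at P60 between genotypes in limma, where 11.1% of all tested genes were called. Tbx1, a beige marker also made by other skin cells, was at -0.27 (SE 0.28) and Hoxc9 at 0.40 (SE 0.30). Between the ages 1 of the 4 was called, and it was lower, where 81.7% of all tested genes were called and 57.3% were called lower. Tmem26, a surface marker of beige adipocytes, fell from 1.36 to 1.63 RPKM at P1 to 0.418 and 0.229 RPKM in WT and 0.547 and 0.28 RPKM in KO (log2 difference -1.18, SE 0.12, adjusted p = 7.11e-06 in limma). Tmem26 entered the fit only through its P1 libraries, where it is high.

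Among 19 tested regulators of the thermogenic programme, 2 were called higher and 1 lower in KO at P60, with a median of 0.11, where 8.21% of all tested genes were called higher and 2.91% lower. Tle3, a corepressor that opposes Prdm16, rose from 11.6 and 11.4 RPKM to 16.1 and 16.5 RPKM (log2 difference 0.48, SE 0.09, adjusted p = 0.0308 in limma). Zfp516, a partner of Prdm16, rose from 3.08 and 2.94 RPKM to 4.25 and 4.11 RPKM (0.41, SE 0.11, adjusted p = 0.0443). Tfam, a transcription and packaging factor of mitochondrial DNA downstream of Ppargc1a, fell from 8.39 and 7.49 RPKM to 5.71 and 6.11 RPKM (-0.40, SE 0.11, adjusted p = 0.0466). In the 19 alternatives Tle3 was called in 10, Zfp516 in 4 and Tfam in 4. Between the ages 12 of these regulators fell and 5 rose, with a median of -0.39 beside -0.39 for all genes. With median-of-ratios factors 8 fell and 7 rose, and with quantile normalization 9 and 5. The largest fall among those named was that of Ctbp2 (-1.41, SE 0.09), followed by Tle3 (-1.2, SE 0.06) and Ehmt1 (-1.12, SE 0.06). Ctbp2 is a corepressor partner and Ehmt1 a methyltransferase partner of Prdm16.

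Of 13 tested genes of adrenergic and thyroid hormone input, 2 were called higher at P60 in KO and 0 lower in limma, where 8.21% of all tested genes were called higher. They were Pde3b, which breaks down cAMP in adipocytes (log2 difference 0.86, SE 0.21, adjusted p = 0.0388), and Crtc3, a coactivator of CREB (0.41, SE 0.11, adjusted p = 0.0452), called in 6 and 3 of the 19 alternatives, which do not include either scaling. Between the ages 10 fell and 3 rose, where 57.3% of all tested genes were called lower and 24.3% higher, among the falls Creb1 (-1.38, SE 0.12), Pde3b (-1.44, SE 0.14) and Atf2 (-0.69, SE 0.08). With median-of-ratios factors 7 fell and 3 rose, and with quantile normalization 4 and 2.

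Of 17 relatives of the 6 genes 10 were tested, and 1 was called at P60, where 11.1% of all tested genes were called. It was the potassium channel gene Kcnk6, which was higher in KO (3.46 and 3.12 RPKM in WT, 6.01 and 4.88 RPKM in KO, log2 difference 0.65, SE 0.11, adjusted p = 0.0278 in limma) and was called in 11 of 19 alternatives. Ucp3, the uncoupling protein relative of skeletal muscle, rose with age from 3.19 to 6.73 RPKM at P1 to 28 and 32.8 RPKM in WT and 14.9 and 24.7 RPKM in KO (log2 difference 2.33, SE 0.21, adjusted p = 3.16e-06). Pprc1, a relative of Ppargc1a, fell by 1.28 (SE 0.10) where Ppargc1a rose. Of the other deiodinases, Dio1 had at most 0.0372 RPKM and Dio3 at most 0.387 RPKM in any library.

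General adipocyte markers were present throughout, unlike Ucp1. The 18 genes summed to 2210 to 3640 RPKM in WT and 2210 to 2940 RPKM in KO at P1, and to 4880 and 5380 RPKM in WT and 3920 and 5160 RPKM in KO at P60, with none at 0. Car3, a carbonic anhydrase of adipocytes and muscle, made up 3770 and 3130 RPKM of the WT sums at P60, and the other 17 genes summed to 1840 to 2840 RPKM at P1, 1110 and 2250 RPKM in WT at P60 and 2080 and 2520 RPKM in KO at P60. Between the ages 5 of the 18 rose and 6 fell, where 24.3% of all tested genes were called higher and 57.3% lower. Adipoq, the adipocyte hormone adiponectin, had means of 134 RPKM in WT and 115 RPKM in KO at P1 and of 39.2 RPKM in WT and 81.4 RPKM in KO at P60. In KO at P60 15 of the 18 were higher (median 0.39) and none passed in limma, where 11.1% of all tested genes were called. Adipoq was at 1.26 (SE 0.45, adjusted p = 0.0898 in limma) and the glucose transporter gene Slc2a4 at -0.67 (SE 0.26, adjusted p = 0.109). All 7 dermal fibroblast markers were called higher in KO at P60 (median 1.45), where 8.21% of all tested genes were called higher. Each was called in 4 to 10 of the 19 alternatives, and 0 of the 7 passed with quantile normalization (median 1.41). They summed to 23400 RPKM in KO P60 replicate 1 and 9790 RPKM in KO P60 replicate 2 against 4330 and 5440 RPKM in WT.

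The authors' deposited table gave ratios of KO over WT for all 6 genes. For P60 the authors' deposited table listed 0.586 for Ppargc1a, 0.828 for Dio2, 0.833 for Ucp1, 1.06 for Prdm16, 1.17 for Kcnk3 and 1.56 for Cidea. For P1 the authors' deposited table listed 0.402 for Kcnk3 and 0.825 to 1.12 for the other members.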

How the data were processed

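Total RNA from dorsal skin was sequenced in 10 libraries. Reads were aligned to mm10 with TopHat2 2.1.0 and expression was calculated in Partek, per the submitters' processing notes; the annotation of genes was not given in the sources used here. In all, the authors deposited RPKM values for 24543 entries, a linear ratio of KO over WT, and a count of alignments per library. Spreadsheet software had turned 26 symbols into dates. Depth was 36131011 to 74916106 alignments, and at P60 the 95% interval of a gene's log2 difference had a median width of 0.348 on each side. RPKM is scaled to each library's alignments, so RNA that takes a large share of a library lowers all other values.

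From these RPKM values, log2(RPKM + 0.5) was tested with limma 3.58.1 in R 4.3.3, which understates changes of genes with low values. The filter kept 14026 genes that reached 1 RPKM in 2 or more libraries. One model had a mean for each of the 4 groups, so P60 differences also rest on the spread at P1, with a mean-variance trend. P-values were adjusted over all tested genes within a comparison, and a gene was called below an adjusted p of 0.05. The 2 members under this limit had two-sided exact permutation tests. The fits were also tested on simulated data. The members and gene lists were chosen with earlier results of these data known. Named were all members, up to 3 called genes of the smallest p from each list and comparison (where none was called, 2), and the 3 genes of the most similar profile; some are left out for length, and 1 of the similar profiles is not reported here. Alternatives were other pseudocounts (0.1 and 1), no filter, quantile normalization, median-of-ratios factors, array weights, no trend, a replicate block, P60 alone, 1 genotype alone, and each library left out. Promoters came from RefSeq (GRCm38.p6).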

Additional observations from a re-analysis of the deposited data

Results flagged for a closer look

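Kcnk3 stood apart between the ages: at P1 all KO libraries lay below all WT libraries, with a log2 difference of -1.02, and at P60 both KO libraries lay above both WT libraries, with one of 0.14, or 0.01 relative to the median of all genes; KO lay above WT in this way for 42.7% of all tested genes at P60. The P60 libraries nearest to each other were at 0.622 RPKM in WT and 0.626 RPKM in KO, and the P60 difference turned to -0.09 with quantile normalization. The P1 difference led to the choice of the gene, so the difference between the ages was not tested.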

How the results depend on the processing

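The number of genes called between genotypes at P60 was 1560 and stayed within 1.5 times that with pseudocounts of 0.1 (1686) and 1 (1475), median-of-ratios factors (1407) and no trend (1297). It was 502 with no expression filter, 55 with quantile normalization, 741 with array weights and 0 in a fit to P60 alone. It ran from 0 to 2443 when 1 library was left out, with 0 without KO P1 replicate 2 or KO P60 replicate 1. Of the members, 1 was called at P60 (Ppargc1a), and 0 with a pseudocount of 0.1, no filter, quantile normalization, array weights or P60 alone, and 0 to 1 with a library left out. With the replicate block 2 genes and 0 members were called. The replicate numbers are not shown to pair the samples. Correlations of deviations between WT and KO samples of the same number were -0.166, 0.244 and -0.259 at P1 and 0.236 at P60. With 2 libraries per group at P60, both numbers must give the same value. Cidea at P60 still went with the number (adjusted p = 0.0756 with the block in limma). At P1, 0 genes were called, 2 with no filter, 26 with array weights and 0 to 1 with a library left out. Of the genes called at P60, 73.8% were higher in KO on the deposited scale, 34.5% with quantile normalization and 37.9% with median-of-ratios factors.

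Reversed were Kcnk3 at P60 (-0.0851, quantile normalization), Cidea at P60 (-0.00317 without KO P60 replicate 1, within a range of -0.00317 to 1.23 with a library left out) and Prdm16 between the ages (0.137, exact p = 0.0143, median-of-ratios factors). Ucp1 between the ages was at -0.325 (exact p = 0.0571) and ran from -0.392 to -0.258 with a library left out. It passed without WT P1 replicate 1 (exact p = 0.0238), KO P1 replicate 1 (0.0317) or WT P60 replicate 1 (0.0476). Dio2 and Ppargc1a stayed called between the ages in all 20 alternatives, though with the filter each entered only through libraries of its higher age. The causes were not tested. Ucp1, at 0 to about 20.1 reads, is limited by depth.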
